A study of Mus musculus with 6 samples.

Results

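Type I interferon-stimulated genes are the transcripts that a cell raises when it senses interferon-alpha or interferon-beta. A list of 47 such genes, with interferon-beta and its receptor chains included, was followed in cultured mouse microglia with and without Cre-driven deletion of Nr1d1, the gene of the nuclear receptor REV-ERBα. The members were found in the deposited gene counts by matching each symbol to its Ensembl identifier in the GRCm38 annotation. All 47 matched 1 row each, out of 55487 genes in the files. Microglia came from the cortex of pups at postnatal day 1 to 3 that carried CAG::CreERT2; Nr1d1 fl/fl. The 3 Cre- cultures lacked the recombinase and the 3 Cre+ cultures carried it. All 6 received 4-hydroxytamoxifen (4-OHT) at 1.5 μM for 2 days, according to the sample labels, so both groups carried the floxed alleles and saw the drug. CreERT2 under the CAG promoter is active in most cell types, and the controls hold no Cre, so that the presence of Cre and the loss of Nr1d1 exons cannot be told apart in these data.

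Interferon-beta and the interferon-alphas bind a receptor made of IFNAR1 and IFNAR2, whose kinases JAK1 and TYK2 phosphorylate transcription factors that include STAT2. With IRF9, STAT2 acts in a complex that binds the interferon-stimulated response element, a repeat of GAAA spaced by any pair of bases, in the promoters of its targets. The targets include sensors of foreign nucleic acid, enzymes and binding proteins that block viruses, and IRF7, which feeds back on interferon production. Microglia express many of these genes at a low level without infection, and a subset of microglia in ageing and disease expresses them strongly.

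The libraries held 87545868 to 93942161 counts in Cre- and 93701215 to 110909129 counts in Cre+ cultures. Expression is given as counts scaled to 1000000 in all (CPM) after TMM normalization, whose factors were 0.986 to 1.01. The quasi-likelihood test of edgeR was run on the 11429 genes that exceeded 1 CPM in at least 4 libraries, and a gene was called at a Benjamini-Hochberg adjusted p-value of at most 0.05. Nr1d1 itself was at 2.35, 1.20 and 1.64 CPM in Cre- and 1.00, 0.945 and 1.08 CPM in Cre+ libraries. Its log2 fold change was -0.77 (standard error, SE, 0.25, adjusted p = 0.094, edgeR), short of the threshold, and its counts include exons outside the deleted ones. Among microglia markers, Cd68, Tyrobp and Trem2 were abundant, whereas P2ry12 and Tmem119, which mark microglia of the healthy brain, were at 0.401 to 1.03 CPM and 1.85 to 3.55 CPM. Of the 14 microglia markers tested, Itgam was called higher and C1qc lower in Cre+ cells, and of the 3 endothelial markers tested, Flt1 was called higher, whereas Vwf lay wholly lower in Cre+ libraries and was called by DESeq2 but not by edgeR or limma. The 6 tested markers of astrocytes, the oligodendrocyte lineage and lymphocytes, the last being Bst2, itself a member, had no call in edgeR, DESeq2 or limma. Cre+ libraries lay wholly below Cre- libraries for 3 of all 8 astrocyte, 3 of 9 oligodendrocyte-lineage and 2 of 8 lymphocyte markers. The same held for 5 of 8 fibroblast and mural, 3 of 8 neuronal and 2 of 7 endothelial markers, whereas 1 endothelial marker lay wholly above. Most markers of these lists did not pass the filter. Of all genes tested, 11.7% lay wholly below in TMM-normalized CPM. That share is not a like background, since the marker counts include genes below the filter and use CPM of the library total. No share was counted over all genes below the filter. The 8 markers of fibroblasts and mural cells summed to 2.81, 2.30 and 1.79 CPM of the library total in Cre- libraries and to 1.22, 1.04 and 0.958 CPM in Cre+ libraries. The 8 neuronal markers summed to 3.35 to 4.19 CPM and 2.48 to 2.59 CPM, respectively. Both lists were thus lower in Cre+ cultures, no gene of either was without counts, and the part of these markers in the results was not tested. In bulk RNA, fewer cells of a type and less RNA per cell cannot be told apart.

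Of the 47 members, 38 passed the expression filter. Of these, 8 were called higher in Cre+ microglia and 0 were called lower, which is 21.1% higher against a background of 2.5% of all genes tested called higher and 2.56% called lower. The 8 were Ifitm3, Oasl2, Slfn8, Ifi207, Eif2ak2, Ifi204, Oas1a and Slfn2. The Cre+ libraries lay wholly above the Cre- libraries for 16 of the 38 members, or 42.1%, against 12.3% of all genes tested. They lay wholly below for 1 member, Ifnar2, against 11.7% of all genes. The median log2 fold change of the 38 members was 0.25, with 32 above and 6 below 0, whereas the median of all genes tested was 0.0023. At an unadjusted p-value under 0.05, edgeR's test counted 20 members, 19 higher and 1, Ifnar2, lower, where 9.69% of all genes tested were higher and 9.46% lower by that count, and neither DESeq2 nor limma called a member lower. The list was chosen with earlier results of these data known. These shares and medians thus describe the members and do not test the list against all genes. With 3 cultures a group, an exact 2-sided permutation test of a single gene cannot give a p-value below 0.1, and groups that do not overlap give that value.

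**Figure D1:**
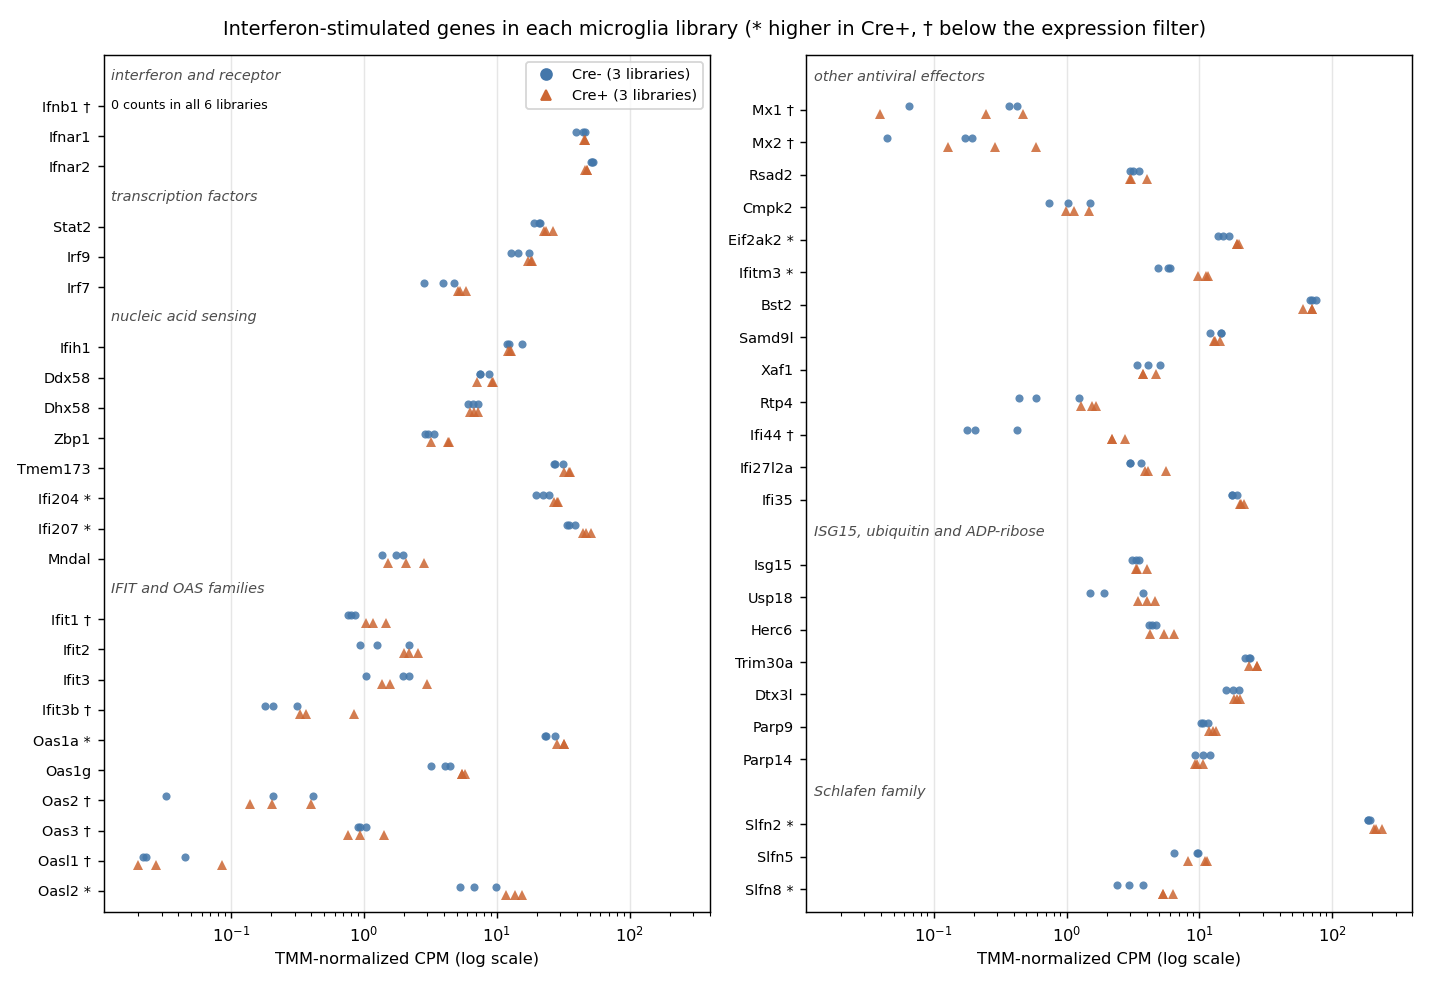
TMM-normalized CPM on a log axis for each of the 47 members, grouped by role, with circles for the 3 Cre- and triangles for the 3 Cre+ libraries. Slfn2 stands highest near 200 CPM in all 6 libraries, the 8 members with an asterisk were called higher in Cre+, and the 9 with a dagger did not pass the expression filter.

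Interferon-beta was not detected, and neither receptor chain was called in edgeR's test, DESeq2 or limma. Ifnb1, which encodes interferon-beta, had 0 counts in all 6 libraries, which allows a level of up to 0.0270 to 0.0343 CPM per library (3 counts), counting error only. The 20 other interferon ligand genes together had 33, 18 and 7 counts in Cre- and 7, 0 and 4 counts in Cre+ libraries, and none passed the filter. Ifnar1, the receptor chain that carries TYK2, was at 39.4 to 46.1 CPM in Cre- and 45.5 to 46.2 CPM in Cre+ libraries, so the groups overlapped (log2 fold change 0.08, SE 0.07). Ifnar2, the chain that binds interferon most tightly, was at 51.7, 53.2 and 51.0 CPM in Cre- and at 47.3, 45.9 and 47.6 CPM in Cre+ libraries. Every Cre+ value of Ifnar2 was thus lower, with a log2 fold change of -0.15 (SE 0.06, adjusted p = 0.16, edgeR).

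Of the 3 transcription factors of the list, 0 were called by edgeR, DESeq2 or limma, although all 3 were higher at an unadjusted p-value under 0.05 in edgeR's test, as were 9.69% of all genes tested. Stat2, the subunit of the response complex that carries its activation domain, was at 20.8, 21.1 and 18.9 CPM in Cre- and 23.6, 22.4 and 26.3 CPM in Cre+ libraries, without overlap (log2 fold change 0.25, SE 0.08, adjusted p = 0.11, edgeR). Irf7 was at 4.78, 2.84 and 3.91 CPM against 5.12, 5.30 and 5.83 CPM, again without overlap (log2 fold change 0.50, SE 0.18, adjusted p = 0.13, edgeR). Irf9, the DNA-binding subunit, overlapped between the groups, since Cre- replicate 1 reached 17.3 CPM and Cre+ replicate 1 stood at 17.2 CPM.

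Among the 8 sensors of nucleic acid, all tested, 2 were called higher, where 2.5% of all genes tested were. Both encode DNA-binding proteins of the p200 cluster on chromosome 1. Ifi207 (chr1:173723427-173741747, minus strand) was at 38.4, 34.6 and 33.4 CPM in Cre- and 51.1, 44.0 and 46.8 CPM in Cre+ libraries. Its Cre+ values lay above every Cre- value, with a log2 fold change of 0.41 (SE 0.07, adjusted p = 0.0035, edgeR). Ifi204 (chr1:173747293-173766943, minus strand), which takes part in sensing of cytosolic DNA, was at 24.6, 22.2 and 19.6 CPM against 28.1, 27.0 and 29.0 CPM, a log2 fold change of 0.34 (SE 0.09, adjusted p = 0.031, edgeR). This call was lost in 5 of the 6 fits without a library, all but the one without Cre- replicate 1, with a log2 fold change of 0.26 to 0.41. Mndal of the same cluster was at 1.37 to 1.96 CPM in Cre- and 1.52 to 2.84 CPM in Cre+ libraries, with overlap. Reads of these genes may be shared, because the longest transcript of Ifi204 matched Ifi211 at 96.9% over 1363 bases and Mndal at 95.7% over 776 bases.

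The other sensors were not called in edgeR's test. Tmem173, the adaptor STING that acts downstream of cyclic GMP-AMP, was at 27.0, 31.3 and 27.2 CPM in Cre- and at 35.7, 32.02 and 34.7 CPM in Cre+ libraries, without overlap (log2 fold change 0.26, SE 0.08, adjusted p = 0.067, edgeR). DESeq2 called it (adjusted p = 0.029), and so did edgeR without Cre- replicate 2, its highest Cre- library (adjusted p = 0.032). In every other fit without a library, Tmem173 was at a log2 fold change of 0.21 to 0.30 and not called. For the RNA helicases that detect viral RNA, the groups overlapped. Ifih1, which encodes MDA5, had a log2 fold change of -0.09 (SE 0.11), Ddx58, which encodes RIG-I, one of 0.10 (SE 0.13), and Dhx58, which encodes LGP2, one of 0.02 (SE 0.13). Zbp1, a sensor of Z-form nucleic acid, was at 2.88 to 3.37 CPM in Cre- and at 3.19 to 4.38 CPM in Cre+ libraries, where replicate 1 stood inside the Cre- range.

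In the families of 2'-5'-oligoadenylate synthetases, whose catalytic members activate RNase L, and of IFIT proteins, which bind viral RNA, 5 of 10 members passed the filter. Oasl2, a synthetase-like gene on chromosome 5 (chr5:114896936-114912234, plus strand), was at 9.87, 5.26 and 6.70 CPM in Cre- and 11.6, 15.6 and 13.8 CPM in Cre+ libraries. All Cre+ values were higher, although the Cre- values themselves spanned 1.88-fold, and the log2 fold change was 0.91 (SE 0.18, adjusted p = 0.0080, edgeR). Oas1a (chr5:120896256-120907521, minus strand), the most abundant synthetase here, was at 27.5, 23.3 and 23.0 CPM against 28.4, 31.7 and 32.03 CPM, a log2 fold change of 0.32 (SE 0.08, adjusted p = 0.039, edgeR). Cre- replicate 1 and Cre+ replicate 1 were close to each other, and the call of Oas1a was lost in 4 of the 6 fits without a library, all but those without Cre- replicate 1 or Cre+ replicate 1. Oas1g, at 3.22 to 4.44 CPM against 5.43 to 5.79 CPM, did not overlap either but had an adjusted p of 0.069 (log2 fold change 0.51, SE 0.15, edgeR). The transcripts of Oas1a and Oas1g are 97.6% identical over 1861 bases, so their counts are not independent.

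The IFIT genes were low and varied between cultures of the same group. Ifit2 was at 2.16, 1.26 and 0.939 CPM in Cre- and 1.99, 2.56 and 2.16 CPM in Cre+ libraries (log2 fold change 0.62, SE 0.27, adjusted p = 0.21, edgeR). Its log2 fold change was 1.02 without Cre- replicate 1, where Ifit2 was called (adjusted p = 0.034, edgeR), and 0.39 without Cre- replicate 3. Ifit3 was at 1.98, 2.17 and 1.03 CPM against 1.57, 2.99 and 1.37 CPM (log2 fold change 0.19, SE 0.31), so the groups overlapped widely. Ifit3b is 97.8% identical to Ifit3 over 1700 bases. It had 18, 29 and 16 counts in Cre- and 40, 78 and 33 counts in Cre+ libraries. Ifit1 had 70 to 75 counts in Cre- and 113 to 137 counts in Cre+ libraries. Both Ifit1 and Ifit3b stood below the filter, with Cre+ above Cre- in CPM in each case and an exact permutation p = 0.1. Oas2, Oas3 and Oasl1 were also below the filter, with at most 132 counts in a library, and their groups overlapped.

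Of the 13 other antiviral effectors, 3 did not pass the filter. Of the 10 tested, 2 were called higher, where 2.5% of all genes tested were. Ifitm3 (chr7:141009586-141010770, minus strand), a membrane protein that blocks viral entry from endosomes, was at 6.002, 4.91 and 5.84 CPM in Cre- and 9.75, 11.6 and 11.2 CPM in Cre+ libraries. With all Cre+ values well above all Cre- values, its log2 fold change was 0.96 (SE 0.12, adjusted p = 0.000306, edgeR), the smallest p-value among the members tested. Eif2ak2 (chr17:78852564-78882573, minus strand), the kinase PKR that halts translation upon binding double-stranded RNA, was at 15.1, 13.7 and 16.6 CPM against 19.0, 19.9 and 19.1 CPM, a log2 fold change of 0.35 (SE 0.09, adjusted p = 0.034, edgeR). The call of Eif2ak2 was lost in 5 of the 6 fits without a library, all but the one without Cre- replicate 3.

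Ifi44 (chr3:151730922-151749960, minus strand), an interferon-induced cytoplasmic protein, showed the widest gap in fold of all members but stood below the filter. It had 37, 19 and 16 counts in Cre- and 239, 258 and 221 counts in Cre+ libraries, or 0.425, 0.206 and 0.179 CPM against 2.18, 2.77 and 2.19 CPM. The ratio of the group means was 8.85 in CPM of the library totals, with an exact permutation p = 0.1. With a looser filter of 0.5 CPM in 3 libraries, its log2 fold change was 3.14 (SE 0.32, adjusted p = 3.14e-05, edgeR), where 2.27% of 13197 genes were called higher. Ifi44 passed that filter through its Cre+ libraries alone, so it could pass only as a gene that differed. Rtp4, a chaperone of membrane receptors, was at 1.24, 0.585 and 0.436 CPM in Cre- and 1.68, 1.29 and 1.57 CPM in Cre+ libraries. Its log2 fold change of 1.01 (SE 0.31, adjusted p = 0.081, edgeR) was the largest of the members in this fit, without overlap and short of the threshold. Without Cre- replicate 1, Rtp4 was called at a log2 fold change of 1.56 (adjusted p = 0.0045, edgeR). In that fit, Rtp4 exceeded 1 CPM in Cre+ libraries alone. The Cre- value nearest to the Cre+ values was left out, so a wider gap followed from the choice of library. In the other 5 fits without a library Rtp4 was at 0.73 to 1.11 and not called, and limma called it (adjusted p = 0.043).

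The remaining effectors above the filter were not called in edgeR's test, with log2 fold changes of -0.09 to 0.49. Ifi35 (17.6 to 19.1 CPM against 20.3 to 21.5 CPM) and Ifi27l2a (3.01 to 3.65 CPM against 3.92 to 5.63 CPM) did not overlap between the groups, and edgeR gave them log2 fold changes of 0.20 (adjusted p = 0.17) and 0.49 (adjusted p = 0.13). Bst2, which encodes tetherin, a protein that holds budding virions on the cell, was at 68.3, 70.1 and 75.8 CPM in Cre- and 70.4, 70.2 and 60.4 CPM in Cre+ libraries, a log2 fold change of -0.09 (SE 0.07, adjusted p = 0.50, edgeR). Rsad2, which encodes viperin, and Cmpk2, its neighbour on chromosome 12, had log2 fold changes of 0.06 (SE 0.17) and 0.14 (SE 0.27). Samd9l and Xaf1 both had a log2 fold change of -0.03, with SEs of 0.10 and 0.17. The dynamin-like GTPases Mx1 and Mx2 had 4 to 59 counts a library, and their groups overlapped.

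Of the 7 members that act through ISG15, ubiquitin or ADP-ribose, 0 were called by edgeR, DESeq2 or limma, and 2, Usp18 and Parp9, were higher at an unadjusted p-value under 0.05 in edgeR's test, as were 9.69% of all genes. Isg15, the ubiquitin-like modifier, was at 3.33, 3.13 and 3.50 CPM in Cre- and 3.33, 4.04 and 3.41 CPM in Cre+ libraries (log2 fold change 0.11, SE 0.16, adjusted p = 0.77, edgeR). Usp18, which removes ISG15 and dampens receptor signalling, was at 3.74, 1.93 and 1.50 CPM against 3.46, 4.64 and 4.05 CPM (log2 fold change 0.76, SE 0.26, adjusted p = 0.12, edgeR). Cre- replicate 1 was inside the Cre+ range of Usp18. Without that library the log2 fold change was 1.23 and the gene was called. In every other fit without a library, Usp18 was at 0.52 to 0.86 and not called. Parp9 did not overlap, at 10.2 to 11.6 CPM against 11.9 to 13.2 CPM, but 458 bases of its exons are shared with its antisense neighbour Dtx3l, whose groups overlapped. Parp14, Herc6 and Trim30a overlapped between the groups as well.

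The Schlafen genes, which regulate growth of immune cells and restrict viral protein synthesis, lie together on chromosome 11. Of the 3 members, 2 were called higher, where 2.5% of all genes tested were, and 3 genes are too few to speak for the family. Slfn2 (chr11:83065112-83070678, plus strand) was the most abundant member, at 111 ± 3.00 FPKM (CPM per kilobase of gene, SD, n = 3) in Cre- cells. In CPM it was at 185.7, 192.9 and 185.3 in Cre- and 235.6, 205.4 and 214.2 in Cre+ libraries, a log2 fold change of 0.22 (SE 0.05, adjusted p = 0.026, edgeR). All Cre+ values were higher, with replicate 1 above the others, and the call was lost in 4 of the 6 fits without a library, all but those without Cre- replicate 2 or Cre+ replicate 2. Slfn8 (chr11:83002158-83020810, minus strand) was at 3.78, 2.41 and 2.97 CPM against 6.36, 5.36 and 5.31 CPM, a log2 fold change of 0.89 (SE 0.17, adjusted p = 0.0070, edgeR). Slfn9, a related gene outside the list, went the other way, at 2.76, 3.02 and 2.77 CPM in Cre- and 1.85, 1.63 and 1.57 CPM in Cre+ libraries (log2 fold change -0.76, SE 0.19, adjusted p = 0.027, edgeR). A search of all longest transcripts gave Slfn8 no match of at least 95% identity over at least 300 bases. Slfn5 was at 6.41 to 9.72 CPM in Cre- and at 8.23 to 11.3 CPM in Cre+ libraries, with overlap.

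**Figure D2:**
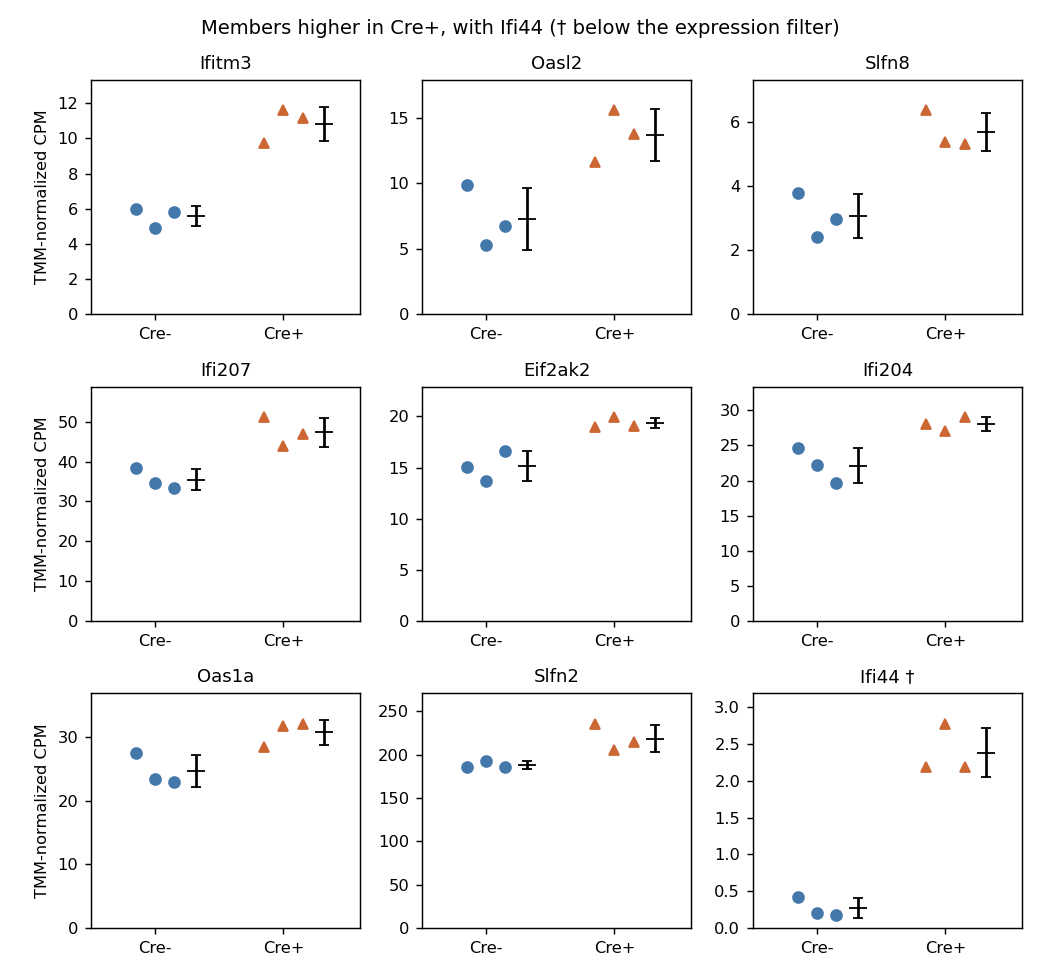
TMM-normalized CPM on a linear axis from 0 for the 8 members called higher in Cre+ and for Ifi44, which stood below the expression filter. Symbols are the 3 libraries of each group in order of replicate number and the bars beside them are the mean ± SD. Every Cre+ library lies above every Cre- library in all 9 panels, with the smallest relative gaps for Oas1a and Slfn2.

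The 8 calls differed in how far they held. Ifi207, Oasl2, Ifitm3 and Slfn8 were called in every other setting tried, including each fit without a library, with adjusted p-values of at most 0.048 from edgeR, limma or DESeq2. Eif2ak2, Ifi204, Oas1a and Slfn2, whose log2 fold changes were 0.22 to 0.35, were each lost in at least 4 of the 6 fits without a library. A further 9 members of the 38, Tmem173, Oas1g, Rtp4, Usp18, Irf7, Irf9, Stat2, Ifit2 and Ifi27l2a, were each called higher in at least 1 other setting. The share of all genes called in at least 1 other setting was not counted, so this number has no background. Irf9, Stat2 and Ifi27l2a were called only without a filter. In that fit 851 of 43842 genes were called higher, and the median log2 fold change of all genes was -0.20. Usp18 and Irf7 were called only there and without Cre- replicate 1, and Ifit2 only without Cre- replicate 1.

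**Figure D3:**
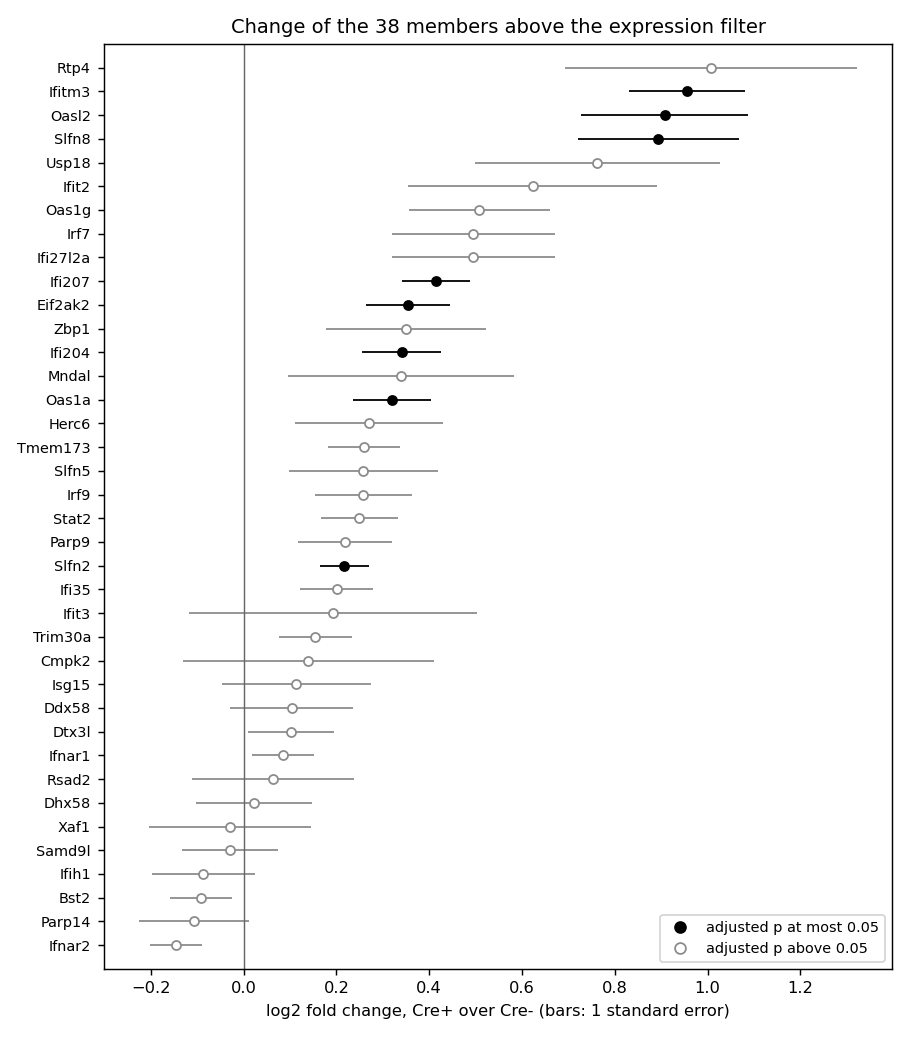
Log2 fold change of Cre+ over Cre- from edgeR for the 38 members above the filter, in order of size, with bars of 1 standard error. Filled points are the 8 members called higher, and 6 members lie below 0, the lowest being Ifnar2 at -0.15.

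Response elements in the promoters were set beside these values, since the members are known as targets of the complex that holds STAT2 and IRF9. RefSeq promoter sequences of GRCm38.p6 were found for 35 of the 47 members. In the 250 bases before the start site, GAAA, any 2 bases and a second GAAA were searched on both strands, and overlapping matches were counted. Of the 35 members, 15 held at least 1 match (42.9%), against 3.46% of 27025 genes with a promoter in the table. By result, 3 of the 7 called members with a promoter sequence held a match, and so did 9 of the 22 members tested and not called. The matches of 3 called members are shown with those of a relative or of uncalled members, in capitals and 5′ to 3′ on the strand of the gene. Capitals that read TTTC first are matches on the opposite strand.
Ifi207: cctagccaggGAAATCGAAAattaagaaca
Mndal: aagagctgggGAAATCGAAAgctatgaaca
Oas1a: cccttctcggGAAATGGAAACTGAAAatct
Oas1g: cccttctcggGAAATGGAAACTGAAAat
Slfn8: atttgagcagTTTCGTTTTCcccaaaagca
Slfn5: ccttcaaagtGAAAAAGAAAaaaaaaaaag
Isg15: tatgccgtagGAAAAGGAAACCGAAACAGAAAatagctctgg
Bst2: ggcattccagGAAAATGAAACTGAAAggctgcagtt

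In GRCm38.p6, the windows lie at chr1:173741831-173741860 (Ifi207), chr1:173880204-173880233 (Mndal), chr5:120907526-120907555 (Oas1a), chr5:120887614-120887641 (Oas1g), chr11:83020839-83020868 (Slfn8), chr11:82951937-82951966 (Slfn5), chr4:156200865-156200906 (Isg15) and chr8:71537577-71537612 (Bst2). Those of Slfn5 are on the plus strand and the others on the minus strand. Oas1a and Oas1g share the same pair of overlapping matches, 20 and 14 bases before the start of Oas1a and 18 and 12 bases before that of Oas1g. Ifi207, which was called, and Mndal, which was not, hold the same 10 bases, 41 and 36 bases before their starts. Isg15 holds 3 overlapping matches and Bst2 holds 2, and neither gene was called. For Ifitm3, Oasl2, Eif2ak2, Slfn2 and Ifi44, these letters were not in the window searched. No promoter sequence was used for Ifi204, Rtp4, Usp18, Ifi27l2a, Tmem173, Dhx58, Zbp1, Oas2, Mx1, Mx2, Parp9 and Parp14.

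Within the groups, the members had a common order of libraries that all genes did not have. In Cre-, replicate 1 held the highest value for 23 of the 38 members (60.5%, against 34.1% of all genes tested) and replicate 3 the lowest for 22 (57.9%, against 33.8%). In Cre+, replicate 1 held the lowest value for 23 members (60.5%, against 31.7%), and the highest was in replicate 2 for 15 and in replicate 3 for 16 members. On the log2(CPM + 0.5) scale, the median deviation of the members from their group mean was 0.11, -0.03 and -0.08 in Cre- replicates 1 to 3 and -0.08, 0.04 and 0.02 in Cre+ replicates 1 to 3, where that of all genes lay within 0.0024 of 0. The members tested are not independent of each other, and each library is 1 culture.

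Of the 38 members above the filter, those that moved most inside a group were Rtp4, Usp18, Ifit2, Ifit3 and Cmpk2. Their highest and lowest Cre- values differed 2.85-, 2.49-, 2.30-, 2.11- and 2.04-fold. Members below the filter, with few counts, were not ranked. All 5 were lowest in Cre- replicate 3, and all but Ifit3 were highest in Cre- replicate 1. In Cre+, the members highest in replicate 2 included Ifit2, Ifit3, Oasl2, Oas1g, Isg15, Usp18, Cmpk2, Ifi27l2a, Ifitm3, Eif2ak2, Ifi35, Xaf1 and Parp14. The sensor Ifih1 and the receptor chain Ifnar1 were highest there as well. Members highest in replicate 3 included the transcription factors Stat2, Irf9 and Irf7 and the sensors Ddx58, Dhx58, Zbp1, Ifi204 and Mndal. Oas1a, Rsad2, Ifnar2, Herc6, Trim30a, Dtx3l, Parp9 and Slfn5 were also highest in replicate 3. Slfn2, Slfn8, Ifi207, Tmem173, Rtp4, Bst2 and Samd9l were instead highest in Cre+ replicate 1, the library in which most other members were lowest. For 24 of the 38 members, the range inside the wider group exceeded the size of the log2 fold change between the groups. All genes were not counted in this way, so the 24 are not shown to be particular to the members. The median range inside the wider group was 0.38 on the log2 CPM scale, against 0.27 over all genes tested. Ifitm3, Slfn8, Oasl2 and Ifi207 were among the 14 members whose difference between the groups was the larger, and the range of Oasl2 in Cre- nearly equalled its fold change, at 0.91 on the log2 scale.

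**Figure D4:**
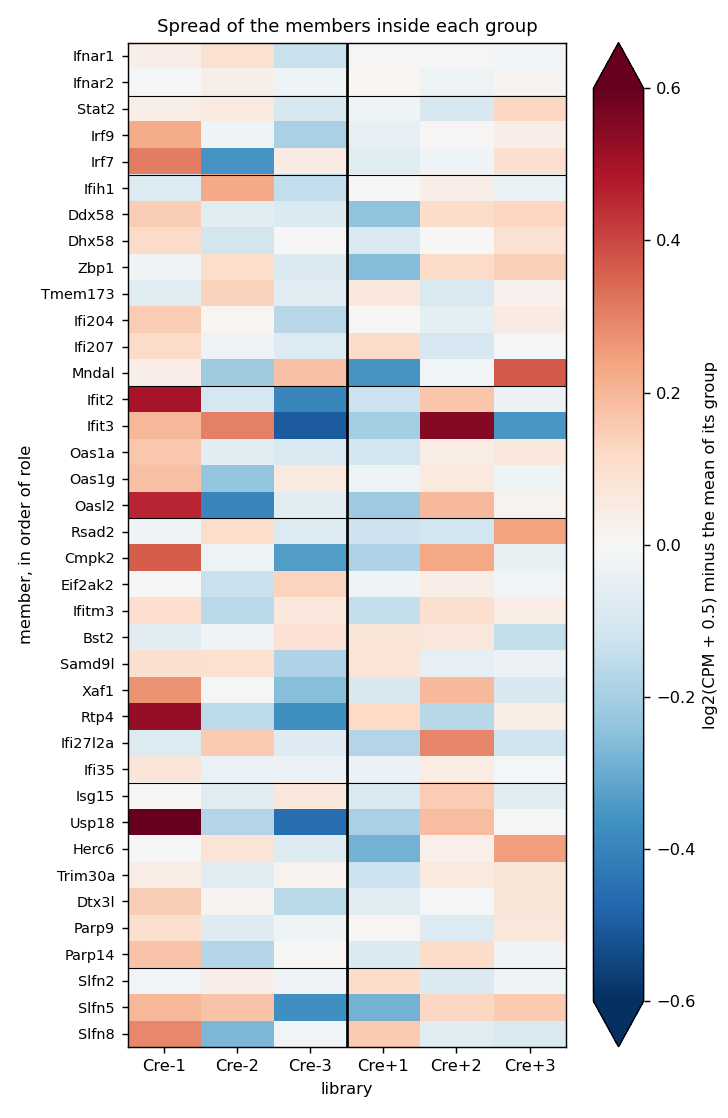
Deviation of each of the 38 members from the mean of its own group in each library, as log2(CPM + 0.5), with red above and blue below the mean and colours saturated at 0.6. The column of Cre- replicate 1 is mostly red and those of Cre- replicate 3 and Cre+ replicate 1 are mostly blue.

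Other genes of the pathway were counted in the same way. Of the 22 tested genes of interferon signalling and sensing outside the list, 0 were called in edgeR's test, 0 by limma and 1 by DESeq2, with 4 higher and 1 lower at an unadjusted p-value under 0.05 in edgeR's test, against 9.69% and 9.46% of all genes. The highest expressed were Irf8, Ptpn6 and Jak1. Irf8, a transcription factor of the microglial lineage, was at 187.1 to 197.6 CPM in Cre- and 169.8 to 175.6 CPM in Cre+ libraries (log2 fold change -0.15, SE 0.04, adjusted p = 0.061, edgeR). Jak1 overlapped between the groups, at 135.7 to 150.4 CPM and 149.9 to 168.0 CPM, as did Ptpn6. Of the 33 other interferon-stimulated genes tested, 2 were called higher and 1, Slfn9, lower by edgeR, against 2.5% and 2.56% of all genes. Trim25, the ubiquitin ligase that acts on RIG-I, was at 28.4, 30.4 and 28.4 CPM in Cre- and 40.9, 43.3 and 39.7 CPM in Cre+ libraries (log2 fold change 0.51, SE 0.07, adjusted p = 0.000306, edgeR). Ifi27 was at 80.4 to 86.3 CPM against 99.3 to 112.9 CPM (log2 fold change 0.36, SE 0.06, adjusted p = 0.0014, edgeR). Shisa5, Lgals3bp and Ly6e, the other abundant genes of that list, were not called, with log2 fold changes of 0.08, 0.18 and 0.03. Over the 33 genes, the median was 0.07, with 25 above and 8 below 0. Cre+ libraries lay wholly above for 7 and wholly below for 2 of them, against 12.3% and 11.7% of all genes. At an unadjusted p-value under 0.05, edgeR's test counted 8 higher and 1 lower, against 9.69% and 9.46% of all genes. In either direction, limma called 3 and DESeq2 4 of the 33. Of 11429 genes, limma called 279 higher and 293 lower, and DESeq2 412 higher and 474 lower. Of the 11 tested genes associated with interferon-gamma, Gbp3 alone was called by edgeR and by limma, at 1.71 to 1.90 CPM in Cre- and 2.84 to 3.42 CPM in Cre+ libraries. The share called higher by edgeR was 9.09% of the 11, against 2.5% of all genes. DESeq2 called 3, Gbp3 and Irgm1 higher and Jak2 lower, where it called 412 higher and 474 lower of 11429 genes. The receptor chains Ifngr1 and Ifngr2 and Cd274 were not called by any of them.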

How the data were processed

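RNA of 6 microglia cultures, 1 library each, had been amplified with a SMARTer kit and sequenced by the authors. The deposited counts give the reads of each Ensembl gene on GRCm38, without normalization by the authors. The deposited CPM values are these counts scaled to a library total of 1000000, and the deposited FPKM values are the CPM divided by gene length. The submitters' processing notes name STAR 2.7.9a and featureCounts 2.0.3, whereas the paper names other versions and gives 24 h of 4-OHT in its methods, while its results section and the labels give 2 days. Whether strand was used in counting is not given in the sources used here. No column of per-sample values was left unused for want of a sample.

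The members, the other lists and their roles were chosen with earlier results of these data known. Genes with rRNA and Mt_rRNA biotypes were removed, and genes above 1 CPM of the library total in at least 4 libraries were tested with the quasi-likelihood test of edgeR 4.0.16 (TMM, R 4.3.3, Benjamini-Hochberg adjustment over all 11429 genes, threshold 0.05). The SE of a log2 fold change was taken as its size over the root of the F statistic. The common dispersion gave a coefficient of variation of 10.0% between cultures. The alternatives were RLE size factors, limma 3.58.1 (voomWithQualityWeights), DESeq2 1.42.0, other filters, an adjusted p of 0.1, a replicate block, CPM on library totals and leaving out each library. The edgeR, limma and DESeq2 fits were first tested on simulated counts, and the other steps were not. Named genes were all members, Nr1d1, and, of the other lists, called genes and up to 3 with the highest mean CPM. P2ry12, Tmem119, Irgm1 and Jak2 were named after their values were seen. A further result on the pathway is not reported here. Transcripts were compared with blastn 2.17.0. The paper describes cultures of this line from Cre+ pups and Cre- littermates, and other cultures as made from individual pups, but the sources used here do not tie the 6 libraries to pups or litters. The p-values thus measure the spread between cultures, which may be technical. Outlying libraries were not tested for, since the groups hold 3.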

Additional observations from a re-analysis of the deposited data

How the results depend on the processing

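No member was called lower in any alternative. Of 11429 genes tested, RLE size factors called 258 higher with 8 members among them, and voomWithQualityWeights 279 with 9 members. DESeq2 called 412 higher with 10 members, and 474 lower. The stricter filter gave 287 of 10954 genes higher with 8 members, and the looser filter 299 of 13197 genes with 9 members. The member added by the looser filter was Ifi44, which passed it through its Cre+ libraries alone and so could pass only as a gene that differed. An adjusted p of at most 0.10 gave 11 members higher, and all genes were not counted at that threshold. Without a filter, 17 members were called higher, Ifi44 among them, with 851 of 43842 genes called higher and 677 lower. The median log2 fold change of the members fitted was then 0.34 and that of all genes was -0.20. Samd9l turned to 0.048 and Xaf1 to 0.052, uncalled. Leaving out 1 library gave 4 to 10 members called higher (4 without Cre+ replicate 3, 5 without Cre- replicate 3, Cre+ replicate 1 or Cre+ replicate 2), 152 to 200 of all genes higher and 165 to 265 lower, with fewer samples in each fit. Over these fits the sign changed for 7 uncalled members, with log2 fold changes of -0.12 to 0.015 (Samd9l), -0.16 to 0.13 (Xaf1), -0.16 to 0.040 (Ifih1), -0.035 to 0.077 (Dhx58), -0.23 to 0.40 (Ifit3), -0.078 to 0.43 (Cmpk2) and -0.089 to 0.14 (Rsad2). The cause was not tested. Among the 38 members tested, the 17 without overlap between the groups were as many in CPM on library totals.

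Replicate numbers are shared by the groups, but deviations of libraries with the same number correlated across genes at 0.0067, -0.033 and -0.056, so the numbers were not taken to pair the cultures. With the number as a replicate block, 6 members were called higher, 5 of them among the 8 called without it, and 205 of all genes higher and 225 lower. Oas2, Oasl1, Mx1 and Mx2 had at most 59 counts in a library, the fewest of the members with counts, so their relative counting error is the largest.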
